A study of Drosophila melanogaster with 16 samples.

Results

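The 33 genes described here are structural genes and some regulators, such as elav and repo, listed for differentiated tissue of the Drosophila melanogaster embryo. They serve muscle, the cuticle with its chitin, and neurons and glia. They were chosen by symbol, and 30 of the 33 were found by FlyBase ID among the 15682 genes of the deposited tables: 13 of muscle, 8 of cuticle and 9 of neurons and glia. The muscle genes wupA and Zasp52 and the neuronal gene Nrg matched no ID and were not analysed here. Total RNA came from embryos of mixed sex collected at 0-2 hr or 2-4 hr, in which maternal RNA interference against clamp, a gene for a DNA-binding zinc finger protein, was compared with a driver control. Each of the 4 groups, clamp RNAi and MTD control at either time, had 4 samples, 16 in all.

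The mothers of the clamp RNAi embryos carried P{COG-Gal4:VP16} over y[1] sc[*] v[1], with P{Gal4-nos.NGT}40 over a + chromosome and with P{nos-Gal4-VP16} over P{TRiP.GLC01858}attP2. The mothers of the MTD control embryos carried the drivers P{COG-Gal4:VP16}, also P{Gal4-nos.NGT}40 and also P{nos-Gal4-VP16}, with no interference construct named. Virgin females 3 to 5 days old of either kind were mated to yw males. The drivers act in the female germline, and the labels name 1 interference line. Both groups differed in genetic background as well, as written in these genotypes, and construct and background cannot be told apart.

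The tables set a condition B against a condition A at each time, and neither headers nor labels tie a letter to a genotype. In the authors' deposited table for 0-2 hr, Clamp was 66.0-fold lower in condition B than in condition A (log2 change -6.04, DESeq adjusted p = 2.62e-179, overall mean 1416 normalized reads). It was 38.8-fold lower in condition B in the authors' deposited table for 2-4 hr (log2 change -5.28, overall mean 1654), where DESeq's adjusted p is listed as 0. The letter B therefore stands for embryos with less Clamp RNA, and changes below are log2 of condition B over condition A, as the authors wrote them.

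Striated muscle is built of sarcomeres, in which thick filaments of myosin slide along thin filaments of actin whose access is set by tropomyosin and troponin. Insect cuticle is a layer of chitin and chitin-binding proteins secreted by the epidermis and the tracheal tubes. Differentiating neurons make the RNA-binding protein Elav and then the machinery of synaptic vesicle release, and glia are marked by Repo. In the fly these structures form after gastrulation. Abundant RNA of many contractile, cuticular and synaptic genes is therefore a property of embryos older than those of the early divisions. This does not hold for all of the genes here: Tm1 and fax were abundant already at 0-2 hr, at 8190 and 7630 normalized reads.

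The level given for a gene is its overall mean at a time, in normalized reads over the libraries of both conditions. No value per library is given, so that the spread between libraries enters only through the authors' DESeq test, and a gene is called here where its adjusted p in their table lies under 0.05. Each condition's own mean is deposited too, but nothing in the headers or labels ties such a column to a sample group, and no value here is taken from them. When those means were divided into reads per library, a single library of condition A at each time held most of the RNA of the muscle and cuticle genes. The values of that division are not reported and support nothing below, and no result below shows that a difference was shared by all libraries of a condition. Both times were normalized separately. In whole embryos, fewer cells of a type and less RNA per cell cannot be told apart. Whether a collection of either condition held embryos older than its window was not tested.

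Nearly all of the 30 genes had a lower mean in condition B, and few of them were called. At 0-2 hr 29 of the 30 had a negative log2 change in the authors' deposited table and 1, futsch, a positive one, with a median of -2.92 over the 30 genes against -0.10 over all 13096 genes tested. At 2-4 hr all 30 were negative in the authors' deposited table, with a median of -3.19 against -0.04 over the 14245 genes tested. Among all genes tested, 58.5% were negative at 0-2 hr and 52.7% at 2-4 hr. DESeq called 4 of the 30 lower in condition B at 0-2 hr, Tm1, obst-B, Cht2 and fax, where 5.61% of all genes tested were called lower. It called 4 of the 30 lower at 2-4 hr as well, Cht2, elav, nrv2 and fax, where 8.14% of all genes were. None was called higher at either time, against 5.56% and 7.38% of all genes at 0-2 hr and 2-4 hr. With an unadjusted p under 0.05 the counts were 5 lower at 0-2 hr, the fifth gene being nrv2, and 4 lower at 2-4 hr. In either direction, 2650 of the 13096 genes tested at 0-2 hr and 3364 of the 14245 at 2-4 hr had such a p.

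**Figure D1:**
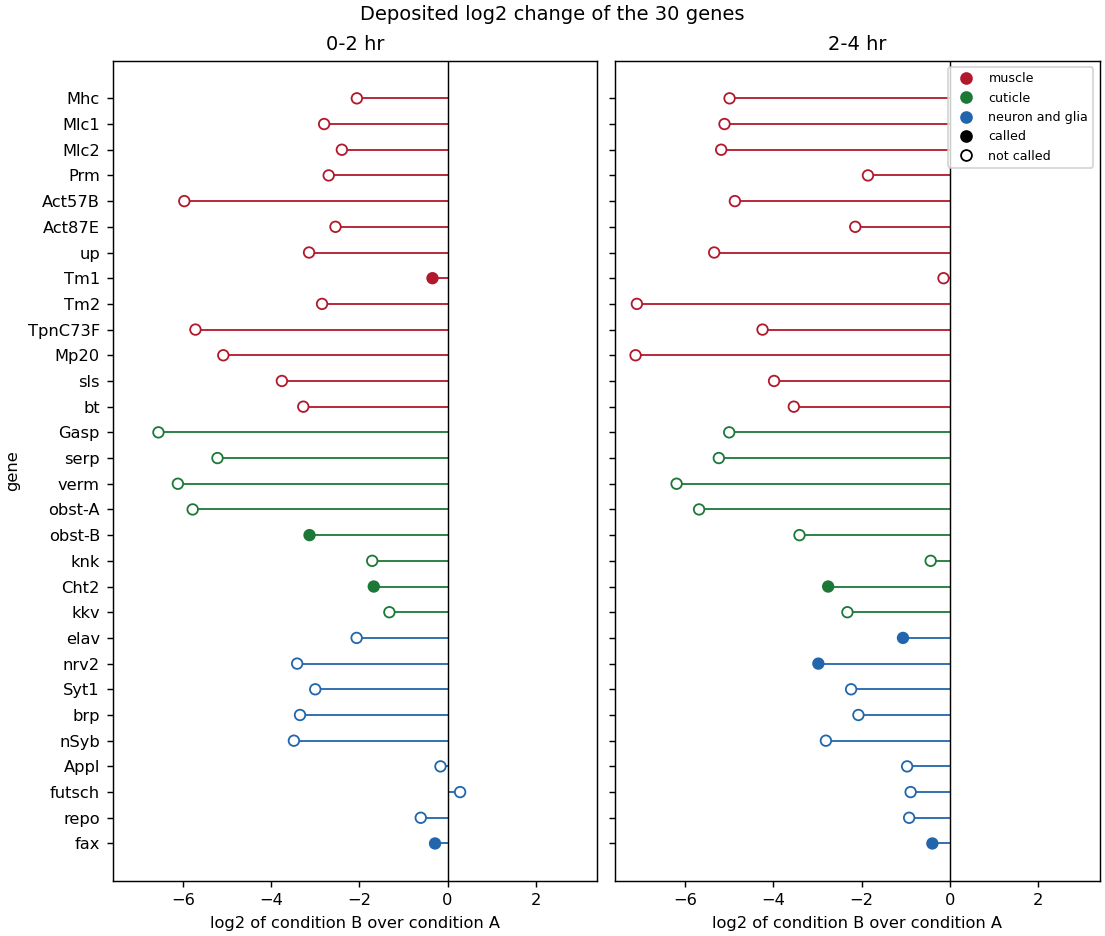
Deposited log2 of condition B over condition A for each of the 30 genes at 0-2 hr (left) and 2-4 hr (right), as 1 point per gene coloured by tissue; filled points are genes the authors' DESeq test called at an adjusted p under 0.05. Most points lie left of 0 and most of those far left are open. Some filled points, such as Tm1 and fax, lie close to 0, and others, such as obst-B at 0-2 hr and Cht2 and nrv2 at 2-4 hr, lie further left.

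The 3 myosin genes of the thick filament had larger differences at 2-4 hr than at 0-2 hr, and none passed the test. Mhc, the muscle myosin heavy chain, differed 4.16-fold at 0-2 hr in the authors' deposited table, lower in condition B (adjusted p = 0.912) and was 31.9-fold lower in condition B at 2-4 hr (adjusted p = 0.584). Mlc1 and Mlc2, the alkali and regulatory light chains, had log2 changes of -2.80 and -2.40 at 0-2 hr in the authors' deposited table and of -5.11 and -5.18 at 2-4 hr. Their adjusted p lay between 0.571 and 0.870. Prm, the paramyosin of the filament core, had the smaller difference at 2-4 hr, with -2.70 at 0-2 hr and -1.86 at 2-4 hr in the authors' deposited table (adjusted p = 0.843 and 0.871). The 4 thick filament genes thus had a median of -2.55 at 0-2 hr and of -5.05 at 2-4 hr, with 0 called at either time, also at an unadjusted p under 0.05. Their overall means ran from 49.5 to 180.2 normalized reads at 0-2 hr and from 75.4 to 241.5 at 2-4 hr.

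In the thin filament, Act57B was the muscle actin with the highest level and one of the largest differences. Its overall mean was 402 normalized reads at 0-2 hr and 511 at 2-4 hr, and the authors' deposited table has it 62.7-fold lower in condition B at 0-2 hr and 29.3-fold lower at 2-4 hr (adjusted p = 0.531 and 0.598). Act87E, another muscle actin, had log2 changes of -2.54 and -2.14 in the authors' deposited tables at 0-2 hr and 2-4 hr (adjusted p = 0.629 and 0.3503). Actin genes are near-identical copies, and how the counting treated reads shared between them is not stated, so both are uncertain. Tm2, a muscle tropomyosin, differed 7.19-fold at 0-2 hr and 137-fold at 2-4 hr in the authors' deposited tables, lower in condition B at both (adjusted p = 0.821 and 0.428). Its overall mean was nearly the same at both times, 62.5 and 61.2 normalized reads. The troponin T gene up had log2 changes of -3.14 and -5.34 there and the troponin C gene TpnC73F of -5.72 and -4.25, with adjusted p from 0.545 to 0.791.

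Tm1, which encodes muscle tropomyosin and also cytoskeletal forms found in the female germline, stood apart from the other thin filament genes in level and in difference. Its overall mean was 8190 normalized reads at 0-2 hr and 9129 at 2-4 hr. It fell by 0.34 on the log2 scale in condition B at 0-2 hr in the authors' deposited table (1.27-fold, adjusted p = 3.55e-05). For 2-4 hr the authors' deposited table has a log2 change of -0.14 (DESeq adjusted p = 0.419). It was the only muscle gene of the 13 called at 0-2 hr, where 5.61% of all genes tested were called lower. None of the 13 was called at 2-4 hr, where 8.14% of all genes tested were called lower. The tables hold 1 value per gene and do not separate the isoforms of Tm1.

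The giant scaffold proteins had higher levels at 2-4 hr and differences of like size at both times. The titin-like gene sls had an overall mean of 138 normalized reads at 0-2 hr and 280.2 at 2-4 hr, with log2 changes of -3.76 and -3.98 in the authors' deposited tables (adjusted p = 0.646 and 0.587). For bt, the projectin gene, overall means were 230.2 and 395.5 normalized reads and log2 changes -3.27 and -3.54 (adjusted p = 0.733 and 0.684) in the authors' deposited tables. The calponin-related Mp20 was scarce, with means of 10.6 and 15.6, and its log2 changes of -5.09 and -7.13 in the authors' deposited tables were not called (adjusted p = 0.655 and 0.483). Over the 13 muscle genes the median log2 change was -2.85 at 0-2 hr and -4.87 at 2-4 hr, and 8 of the 13 had a lower log2 change at 2-4 hr than at 0-2 hr.

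The cuticle genes included both large differences that were not called and smaller ones that were. Gasp, a chitin-binding protein of the tracheal matrix, was 94.3-fold lower in condition B at 0-2 hr and 32.1-fold lower at 2-4 hr in the authors' deposited tables (adjusted p = 0.475 and 0.555). The chitin deacetylases serp and verm had log2 changes of -5.22 and -6.12 at 0-2 hr there and of -5.24 and -6.20 at 2-4 hr. The chitin-binding gene obst-A had -5.78 and -5.69 in the authors' deposited tables. For serp, verm and obst-A adjusted p lay between 0.471 and 0.618 over both times. Overall means of Gasp, serp, verm and obst-A ran from 38.0 to 137 normalized reads at 0-2 hr and from 71.0 to 199 at 2-4 hr.

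Cht2, a chitinase, fell in condition B at both times. The authors' deposited table has it 3.19-fold lower at 0-2 hr (log2 change -1.67, adjusted p = 7.86e-16) and 6.76-fold lower at 2-4 hr (log2 change -2.76, adjusted p = 2.07e-10). Its level also differed from the others in time: the overall mean was 252 normalized reads at 0-2 hr and 49.3 at 2-4 hr, while 26 of the 30 genes had the higher mean at 2-4 hr. Of its exon bases, 2.07% overlap those of CG13921 on the other strand, and whether the counting used strand is not stated. The chitin-binding gene obst-B fell 8.76-fold at 0-2 hr in the authors' deposited table (adjusted p = 0.0453) and had a log2 change of -3.41 at 2-4 hr (adjusted p = 0.367), at overall means near the low end, 10.02 and 14.7 normalized reads. The chitin synthase gene kkv had log2 changes of -1.32 and -2.32 in the authors' deposited tables (adjusted p = 0.909 and 0.511) and knk, which organizes new chitin, -1.71 and -0.43 (adjusted p = 0.901 and 1). For knk, 64.0% of the exon bases overlap an antisense RNA gene. Of the 8 cuticle genes 2 were called lower at 0-2 hr and 1 at 2-4 hr, where 5.61% and 8.14% of all genes tested were. The median log2 change of the 8 genes was -4.17 at 0-2 hr and -4.21 at 2-4 hr.

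**Figure D2:**
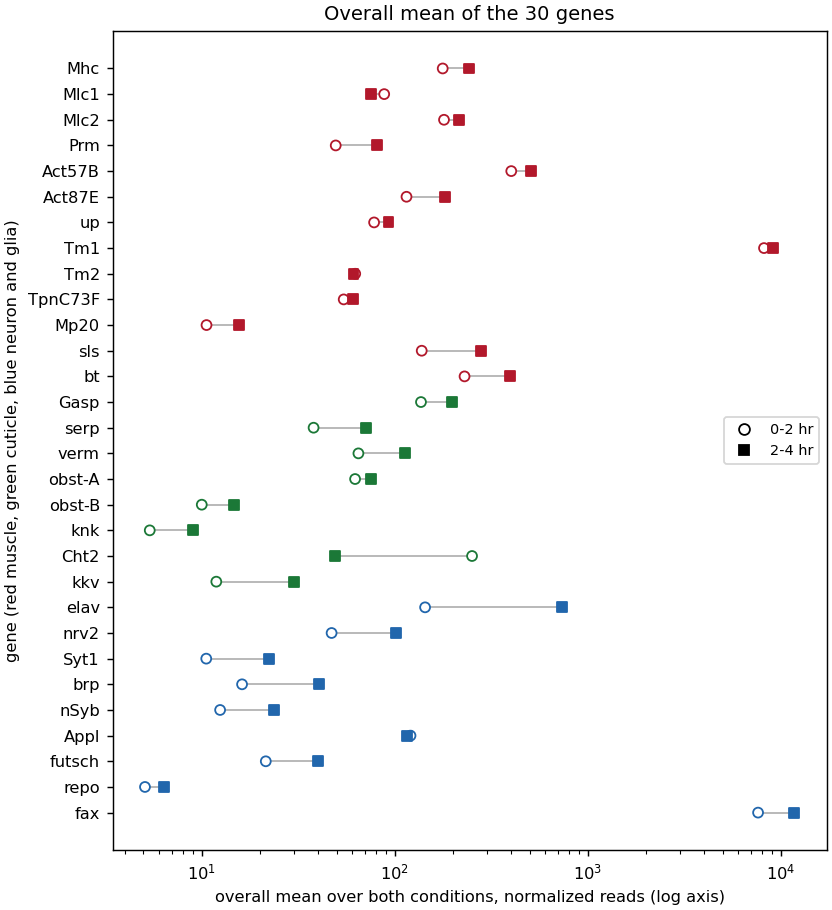
Overall mean of each of the 30 genes in normalized reads over both conditions (log axis) at 0-2 hr (open circles) and 2-4 hr (filled squares), coloured by tissue; the points are the authors' means, without error bars. Tm1 and fax lie at 7630 reads or more, elav is higher at 2-4 hr, and Cht2 is higher at 0-2 hr.

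Among the neuronal genes, elav and nrv2 were called lower in condition B at 2-4 hr and not at 0-2 hr, and whether the times differ was not tested. The RNA-binding protein gene elav, a marker of differentiating neurons, had an overall mean of 144 normalized reads at 0-2 hr and 736 at 2-4 hr. It fell 2.09-fold in condition B at 2-4 hr in the authors' deposited table (log2 change -1.06, adjusted p = 0.0162), and its log2 change at 0-2 hr was -2.06 (adjusted p = 0.400). Of its exon bases 27.9% overlap lncRNA:enrr on the same strand and 6.28% overlap arg on the other, so that its reads cannot be given to elav alone. The gene nrv2, a beta subunit of the sodium-potassium pump, had overall means of 47.1 and 102 normalized reads and fell 7.89-fold at 2-4 hr in the authors' deposited table (adjusted p = 0.0138). Its difference at 0-2 hr in the authors' deposited table was larger, 10.6-fold, and not called (DESeq adjusted p = 0.186).

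The synaptic genes Syt1, brp and nSyb had low levels, and none of these 3 was called. Syt1, the calcium sensor of vesicle release, had log2 changes of -3.001 and -2.24 in the authors' deposited tables at 0-2 hr and 2-4 hr, the active zone gene brp -3.35 and -2.07, and the vesicle SNARE nSyb -3.48 and -2.81. Adjusted p for these 3 genes lay between 0.707 and 0.805, and their overall means between 10.6 and 40.6 normalized reads. Appl, the fly amyloid precursor-like gene, had -0.16 at 0-2 hr and -0.97 at 2-4 hr in the authors' deposited tables (adjusted p = 1 and 0.831). The microtubule-associated futsch had 0.29 and -0.89 in the authors' deposited tables (adjusted p = 1 and 0.697), and the glial regulator repo, at 5.09 and 6.36 normalized reads, had -0.61 and -0.92 (adjusted p = 1 at both times).

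The gene fax, named for its part in axon connection in the fly, was lower in condition B at both times by a small amount. Its overall mean was 7630 normalized reads at 0-2 hr and 11730 at 2-4 hr. The authors' deposited table has it 1.22-fold lower at 0-2 hr (log2 change -0.28, adjusted p = 0.0013) and 1.31-fold lower at 2-4 hr (log2 change -0.39, adjusted p = 0.00119). Of the 9 neuronal and glial genes 1 was called lower at 0-2 hr and 3 at 2-4 hr, where 5.61% and 8.14% of all genes tested were. The median log2 change of the 9 genes was -2.06 at 0-2 hr and -1.06 at 2-4 hr.

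Set per kilobase of exon, so that genes can be compared, fax and Tm1 held the highest levels of the 30 genes. The overall mean per exon kilobase was 1831 for fax and 835 for Tm1 at 0-2 hr, and 2815 and 931 at 2-4 hr. Next came Act57B at both times, with 233 and 296 normalized reads per exon kilobase. Cht2 ranked 4 at 0-2 hr, at 82.9, and 19 at 2-4 hr, at 16.2. By contrast elav ranked 17 at 0-2 hr and 7 at 2-4 hr, with 13.4 and 68.7, and futsch was the lowest of the 30 at both times, at 0.92 and 1.73.

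Large differences in these genes were mostly not called. Among all genes with an overall mean of at least 20 normalized reads and at least a 4-fold lower mean in condition B, DESeq called 17.6% of 238 at 0-2 hr and 30.1% of 249 at 2-4 hr. Of the muscle, cuticle and neuronal genes in that range it called 0 of 17 at 0-2 hr and 2 of 20 at 2-4 hr, Cht2 and nrv2. With a log2 change of -4 or less there were 70 genes at 0-2 hr, 8 of them called, and 67 at 2-4 hr, 4 of them called. These included 6 of the 30 genes at 0-2 hr, Act57B, TpnC73F, Gasp, obst-A, serp and verm. At 2-4 hr they included 11, the same 6 with Mhc, Mlc1, Mlc2, Tm2 and up. None of these 6 or 11 was called. Cht2, with 252 normalized reads, was called at a 3.19-fold difference at 0-2 hr in the authors' deposited table, whereas Act57B, with 402, was not called at 62.7-fold.

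**Figure D3:**
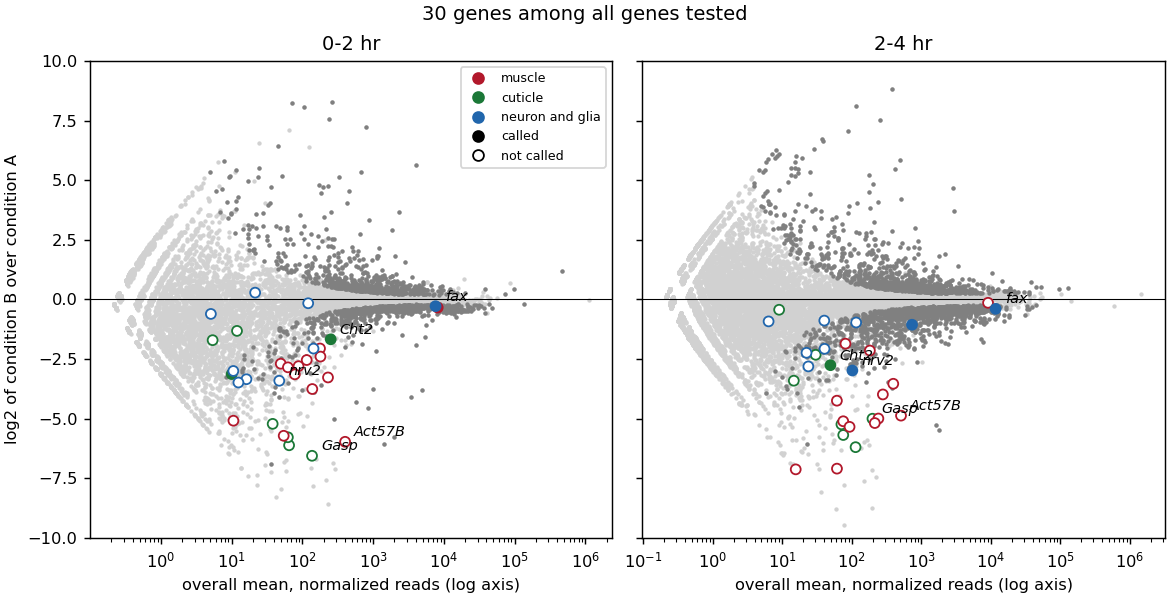
Overall mean in normalized reads (log axis) against log2 of condition B over condition A for every gene tested with a finite log2 change at 0-2 hr (left) and 2-4 hr (right), in dark grey where called, with the 30 genes in colour, filled where called. Gasp and Act57B lie below most genes of like mean as open points, while Cht2 and fax are filled at both times.

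The direction was shared between times, which have separate tables and separate samples. Because the genes were chosen with earlier results of these data known, this agreement could follow from the choice and supports no conclusion. The log2 change had the same sign at 0-2 hr and 2-4 hr for 29 of the 30 genes, or 96.7%, against 60.5% of the 12911 genes tested at both times. All 13 muscle genes, all 8 cuticle genes and 8 of the 9 neuronal and glial genes kept their sign. The order of the log2 changes correlated across the 30 genes with a Spearman rho of 0.71. Across genes with a finite log2 change at both times the rho was 0.43. For the order of the levels the rho was 0.90 across the 30 genes and 0.96 across all genes tested at both times. These are descriptions across genes, which are not independent and share their libraries at each time.

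Other genes of the same structures, taken from lists chosen with earlier results known, gave few calls. The shares of all genes tested were 5.61% called lower and 5.56% higher at 0-2 hr, and 8.14% and 7.38% at 2-4 hr. Of 15 other muscle genes, 0 were called lower and 1 higher at 0-2 hr, and 1 was called lower at 2-4 hr, with medians of -1.14 and -1.505. The called genes were tmod, which caps actin filaments, with a log2 change of 0.36 at 0-2 hr (adjusted p = 0.00557), and the Z-disc gene Actn, with -0.49 at 2-4 hr (adjusted p = 0.000163), in the authors' deposited tables. Msp300, a nuclear anchoring protein of muscle, had log2 changes of -1.60 at 0-2 hr and -1.505 at 2-4 hr in the authors' deposited tables (adjusted p = 0.733 and 0.515). By sign, 10 of the 15 were lower and 5 higher in condition B at 0-2 hr, and 13 were lower and 2 higher at 2-4 hr. At the extremes at 0-2 hr, and chosen after their values were seen, were the troponin C gene TpnC47D, 76.7-fold lower in condition B, and the flight muscle actin gene Act88F, 94.9-fold higher, in the authors' deposited table, neither called (adjusted p = 0.564 and 0.513). Their overall means there were 23.5 and 24.8 normalized reads.

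Of 15 other cuticle and chitin genes, 1 was called lower at each time and none higher, with median log2 changes of -1.99 and -1.71. This gene was Idgf2, a chitinase-related growth factor, which fell by 1.99 on the log2 scale at 0-2 hr and by 1.71 at 2-4 hr in the authors' deposited tables (adjusted p = 3.32e-33 and 9.18e-29). The cuticle matrix gene dpy had log2 changes of -3.13 and -1.71 in the authors' deposited tables (adjusted p = 0.427 and 0.406), and mmy, which supplies the chitin precursor, 0.19 at both times (adjusted p = 0.264 and 0.584). Of 18 other neuronal and glial genes, Csp fell and Syx1A rose at 0-2 hr, with log2 changes of -0.29 and 0.31 in the authors' deposited table (adjusted p = 0.00364 and 0.0171), and none was called at 2-4 hr, where 1 had an unadjusted p under 0.05. The median log2 change of these 18 was -0.23 at 0-2 hr and -0.30 at 2-4 hr, against -2.06 and -1.06 for the 9 neuronal and glial genes above, a difference that was not tested. Csp and Syx1A act in vesicle release, and unc-13, which primes vesicles, had log2 changes of -0.08 and -0.13 in the authors' deposited tables (adjusted p = 0.811 and 0.642). Unlike Syt1, brp and nSyb, the genes Csp, Syx1A and unc-13 had high levels at 0-2 hr, 4155, 1301 and 4021 normalized reads.

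Regulators that act before these tissues differentiate included several called lower at 2-4 hr. Of 12 proneural and neuroblast genes, 0 were called at 0-2 hr, where 6 had an unadjusted p under 0.05, and 7 were called lower at 2-4 hr. Of all genes tested, 5.61% were called lower at 0-2 hr and 8.14% at 2-4 hr. At 0-2 hr 2650 of the 13096 genes tested had an unadjusted p under 0.05. The neuroblast gene mira fell by 1.77 on the log2 scale at 2-4 hr in the authors' deposited table (adjusted p = 2.48e-07), and sca and SoxN had log2 changes of -1.37 and -1.25 (adjusted p = 0.00216 and 0.000859). Of 15 genes of mesoderm and myoblast fate, 1 was called lower at 0-2 hr and 4 at 2-4 hr. These were zfh1 at both times, with log2 changes of -0.35 and -0.83 in the authors' deposited tables (adjusted p = 0.0149 and 7.01e-11), and how, htl and tin at 2-4 hr. The change of how was -0.36 (adjusted p = 0.00228) in the authors' deposited table, and Mef2, which drives muscle genes, had -0.01 at 0-2 hr and -0.27 at 2-4 hr (adjusted p = 1 and 0.133). The difference in call rate between these lists was not tested.

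**Figure D4:**
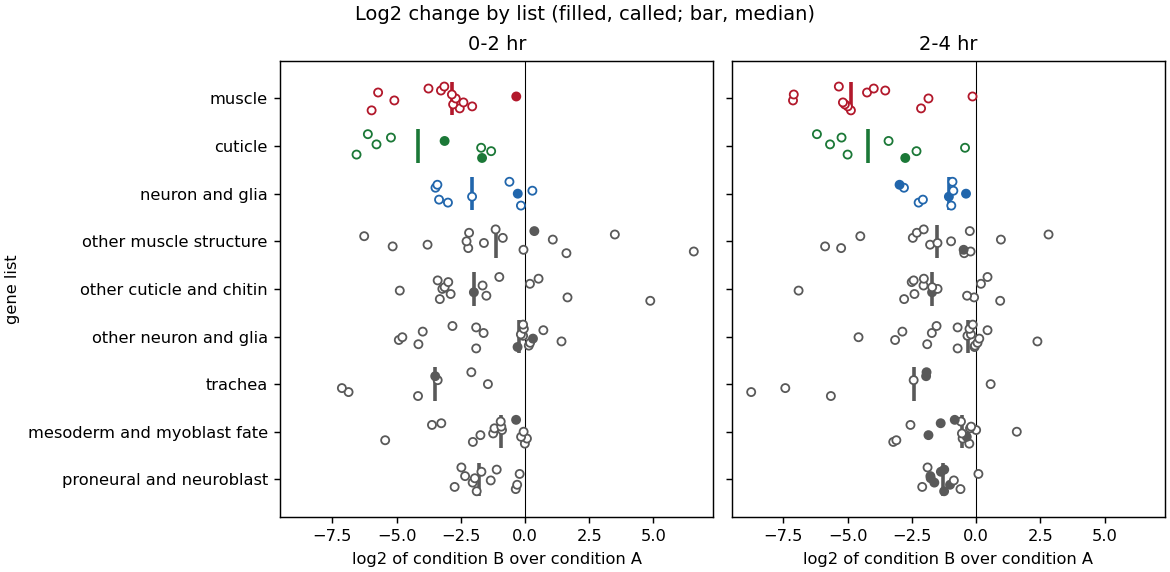
Log2 of condition B over condition A by gene list at 0-2 hr (left) and 2-4 hr (right), 1 point per tested gene, filled where called, with a bar at the list's median. At 0-2 hr the medians are -2.85 for muscle, -4.17 for cuticle, -2.06 for neuron and glia and -3.50 for trachea. They are -1.14, -1.99 and -0.23 for the other muscle, other cuticle and other neuronal lists. For mesoderm and myoblast fate the median is -0.95, and for proneural and neuroblast genes -1.79.

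Markers of other tissues are given beside these values, and the part of those tissues in them was not tested. Of 7 tracheal genes trh was called lower at 0-2 hr and trh and uif at 2-4 hr, where 5.61% and 8.14% of all genes tested were called lower. The late tracheal genes Osi6 and Osi7 were not called at log2 changes of -6.87 and -7.13 for 0-2 hr and of -8.76 and -7.43 for 2-4 hr in the authors' deposited tables (adjusted p from 0.279 to 0.473). For uif, the change at 2-4 hr was -1.93 (adjusted p = 3.77e-07) in the authors' deposited table. Of 8 hemocyte genes 5 had a lower and 3 a higher mean in condition B at each time, with median log2 changes of -2.03 at 0-2 hr and -0.47 at 2-4 hr. At 0-2 hr 0 of them were called, with 2 at an unadjusted p under 0.05, and at 2-4 hr srp fell and crq rose, with log2 changes of -0.54 and 0.34 in the authors' deposited table (adjusted p = 0.00461 and 0.0261). Col4a1, a basement membrane collagen, had -4.08 and -4.06 in the authors' deposited tables and was not called (adjusted p = 0.718 and 0.679). The hemocyte gene Hml, chosen after its values were seen, was 17.6-fold higher in condition B at 0-2 hr in the authors' deposited table and was not called (adjusted p = 0.109), at an overall mean of 4.72.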

How the data were processed

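Total RNA was sequenced after rRNA depletion (NuGEN Ovation, per the labels' protocols). The build dm3 and the tools HTSeq 0.5.4p3, TopHat2 2.0.13 and DESeq are listed, without roles, per the submitters' processing notes. The deposited signal is DESeq's normalized mean read count, and the deposited linear ratio or fold, log2 change, p-value and adjusted p-value come from the authors' comparison of condition B with A, per the file headers. Raw depth is unknown; overall means sum to 14955921 at 0-2 hr and 13946624 at 2-4 hr. The 4 columns of means per condition match no label and give no value here, so the planned values per library are not reported; they were split into reads per library before this was decided.

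IDs were matched to symbols, lists counted and medians taken with Python 3.11.15, numpy 2.4.6 and pandas 2.3.3; counting was tested on simulated data. No test was added, and deposited adjusted p-values equal a Benjamini-Hochberg adjustment of the p-values. Nothing says that samples of a group came from separate collections, so p-values measure the spread between these samples, which may be technical. All matched members are accounted for; of every other list up to 3 genes with the largest mean at 2-4 hr are named, and TpnC47D, Act88F, Hml, Cp36, Cp38, htl, tin and trh were chosen after their values were seen. Members and lists were chosen with earlier results of these data known. Lengths and overlaps of exons come from the BDGP6 annotation, another build, so no coordinates are given.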

Additional observations from a re-analysis of the deposited data

How the results depend on the processing

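Changing the threshold to an unadjusted p under 0.05 or to an adjusted p under 0.1, or requiring a mean of at least 20 normalized reads, left the counts of called genes within 1.5 times of the 4 at each time, all of them lower in condition B. At 2-4 hr an adjusted p under 0.01 left 2 called, Cht2 and fax, and at 0-2 hr it left 3. Requiring also a 2-fold difference, an alternative chosen after seeing the data, left 2 at 0-2 hr, obst-B and Cht2, and 3 at 2-4 hr. The median log2 change at 0-2 hr was -2.82 where the mean reached 20, and without Tm1 and fax, also chosen after seeing the data, it was -3.07 at 0-2 hr and -3.47 at 2-4 hr. Not run were the pseudocounts, the rescaling to a common sum and leaving out each library, which need the means per condition that no label matches. No paired analysis was possible because the columns carry no replicate numbers.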

Other observations

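Lists for follicle cells and yolk, fat body and larval serum, gut, salivary gland, testis and adult eye had 1 call in all, Cp7Fc. At 0-2 hr 5.56% of all genes tested were called higher and 5.61% lower, and at 2-4 hr 7.38% and 8.14%. Of 9 genes of follicle cells and yolk, Cp7Fc, a chorion protein gene, rose in condition B at 2-4 hr (log2 change 4.59 in the authors' deposited table, adjusted p = 0.00037), with a log2 change of 4.06 at 0-2 hr (adjusted p = 0.333). The yolk protein genes Yp1 and Yp2 had log2 changes of -3.21 and -3.64 for 0-2 hr and of 0.74 and -0.72 for 2-4 hr in the authors' deposited tables, and neither was called. The chorion genes Cp36 and Cp38, chosen after their values were seen, were 136-fold and 84.2-fold higher in condition B at 0-2 hr in the authors' deposited table and were not called (adjusted p = 0.157 and 0.178), at overall means of 64.2 and 125. Of the 9 genes 6 were lower and 3 higher in condition B at 0-2 hr, and 3 were lower and 6 higher at 2-4 hr. DESeq called no gene of the lists for fat body and larval serum, gut, salivary gland, testis and adult eye at either time. At an unadjusted p under 0.05 there was 1 gut gene at 0-2 hr, GATAe, lower in condition B. There was also 1 fat body gene at 2-4 hr, Fbp1, higher in condition B.

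The lipoprotein gene apolpp was the most abundant of the fat body list, at 482 and 1015 normalized reads. Its log2 changes were -1.86 at 0-2 hr and -2.60 at 2-4 hr in the authors' deposited tables (DESeq adjusted p = 0.802 and 0.756). Fbp1 had log2 changes of 1.20 and 2.90 there and Lsp1beta of -1.33 and 0.19, at mean levels from 2.47 to 5.61. Of the fat body genes tested, 4 were lower and 2 higher in condition B at 0-2 hr. At 2-4 hr 2 were lower and 5 higher. In the gut list the regulators GATAe, caps and lab had log2 changes of -5.18, -1.43 and -2.07 at 0-2 hr and of -3.08, -1.61 and -0.97 at 2-4 hr in the authors' deposited tables, none called. Of the gut genes tested, 6 were lower and 2 higher in condition B at 0-2 hr, and 4 were lower and 4 higher at 2-4 hr. The salivary gland genes sage, eyg and PH4alphaSG1 had overall means from 1.11 to 6.06 normalized reads. Of the testis list bol reached 182 normalized reads at 2-4 hr, where can and betaTub85D had 2.74 and 1.91. Among the eye genes Rh4, ninaC and Arr2 the overall mean at 2-4 hr was 14.8, 3.50 and 2.27 normalized reads.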
